A study of Mus musculus with 6 samples.

Results

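The replication-dependent histone genes of the mouse were examined in a deposited table of mRNA levels. Members were all genes whose listed symbol starts with Hist1h, Hist2h, Hist3h or Hist4h, and this name rule found 68 of the 22602 listed genes. They comprised 54 Hist1 genes on chromosome 13, 10 Hist2 genes on chromosome 3, 3 Hist3 genes on chromosome 11 and 1 Hist4 gene on chromosome 6. By class there were 6 genes for the linker histone H1, 18 for H2A, 19 for H2B, 12 for H3 and 13 for H4, including 2 listed as pseudogenes, Hist2h3c2-ps and Hist3h2bb-ps.

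Mouse embryonic stem (ES) cells grown on gelatin with LIF gave the 6 libraries, made to learn how SIM2, a bHLH-PAS transcription factor, changes mRNA levels. 3 of them came from the Sim2-expressing clones A6, B8 and C4, each carrying mouse Sim2 tagged with Flag and followed by IRES-Venus, driven by the tetracycline-repressed hCMV*-1 promoter of the ROSA-TET system. The other 3 (0, 1 and 2) came from EB3, that is EBRTcH3, the parental line without the Sim2 transgene. All 6 cultures, controls included, were kept without tetracycline for 26 h, and each clone gave 1 culture, so clone and culture cannot be told apart. Sim2 itself was at 168 to 212 RPKM in the clones and 0.0917 to 0.130 RPKM in EB3 (reads per kilobase of cDNA, scaled to the depth of the library). Depth was 25095861 to 28269340 reads per library. The summed level of 7 ES cell markers was 5178 to 6376 RPKM in the clones and 5220 to 6567 in EB3, while lists of markers for other cell types summed to 1.31 to 22.5 RPKM per list and library. The sums of 2 of these lists were higher in every clone than in every EB3 library. They were 3.52 to 4.18 against 2.29 to 2.64 RPKM for 5 primitive endoderm genes, 4 of them with means under 1 RPKM, and 5.90 to 22.2 against 4.28 to 5.34 RPKM for 3 trophoblast genes, of which Krt8 was the highest. Their part in the results was not tested.

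Cells in S phase need a large supply of the core histones H2A, H2B, H3 and H4, around which DNA is wound, and of linker histone H1, which binds where DNA enters and leaves the nucleosome. The genes that provide this supply lie in clusters, mostly lack introns, and make mRNAs that as a rule end just after a conserved stem-loop in place of a poly(A) tail. The stem-loop is bound by SLBP, and the U7 small nuclear RNP directs the cut behind it. Some of these genes can also give longer, polyadenylated or spliced mRNAs that lack the usual end.

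The stem-loop was looked for in the genome sequence of the files' build, mm9, within each listed gene and just past its end. It was found for 66 of the 68 members. The 2 exceptions for this form of the element were Hist2h2be and Hist1h2an. Members listed at overlapping positions share the same element and are counted separately. These are Hist1h2ao and Hist1h2ap, Hist1h2bq and Hist1h2br, Hist1h4m and Hist1h4n, and Hist2h2aa1 and Hist2h2aa2. The sites of the most abundant member of each class are shown on the strand of the gene because the ends of these mRNAs decide which of them carry a poly(A) tail, with the 16 bases of the stem-loop in capitals.
Hist1h1c (H1): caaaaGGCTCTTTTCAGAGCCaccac
Hist3h2a (H2A): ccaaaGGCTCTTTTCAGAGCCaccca
Hist1h2bc (H2B): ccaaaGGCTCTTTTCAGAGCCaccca
Hist1h3g (H3): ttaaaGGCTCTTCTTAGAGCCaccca
Hist1h4i (H4): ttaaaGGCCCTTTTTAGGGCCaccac
The capitals lie at chr13:23831381-23831396 (plus strand), chr11:58768674-58768689 (plus), chr13:23776516-23776531 (plus), chr13:23627758-23627773 (plus) and chr13:22132835-22132850 (minus), in the order shown. The form of Hist1h1c, Hist3h2a and Hist1h2bc was shared by 42 of the 66 members, in the classes H1, H2A, H2B and H3. The H4 genes had their own stems, and the form printed for Hist1h4i was found in 2 of them.

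16 of the 68 listed genes run on past this element, or lack it, and end with a poly(A) signal (AATAAA or ATTAAA) within their last 50 listed bases, while 52 do not. For 35 of the 52 the listing stops before the end of the stem-loop, so a signal behind it could not be found. Where the mRNAs of these genes end is not known from the listing. The matches in the 3 most abundant members are printed on the strand of the gene, with the matched letters in capitals. A match says only that these letters occur there, and whether they serve as a poly(A) signal was not tested.
Hist1h2bc: atgtatatatAATAAAtgtcatgtaa
Hist1h1c: gtatgcttctAATAAAaagcgtttag
Hist1h4i: gagtgttgggATTAAAggcgtgcgcc
They lie at chr13:23784331-23784336 (plus), chr13:23832211-23832216 (plus) and chr13:22132713-22132718 (minus). The signal starts 814 bases behind the stem-loop in Hist1h1c and 116 bases behind it in Hist1h4i. Hist1h2bc is listed as 2 exons, at positions 23776068 to 23776490 and 23784045 to 23784349 of chromosome 13. Its stem-loop lies in the intron between them, so the listed cDNA of 728 bases holds a poly(A) signal and no stem-loop.

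Members whose listing ends with such a signal had the higher median level in these libraries. Their median was 2.03 RPKM (mean over 6 libraries, 16 genes, range 0 to 21.6), against 0.735 RPKM for the 52 other members (range 0 to 6.50). A mean of at least 5 RPKM was reached by 6 of the 16 and by 1 of the 52, Hist1h3g. These are levels per length of listed cDNA, and the listed cDNA was itself longer in the first set, with a median of 1693 against 393 bases. Part of each set is hard to count, because identical stretches occur elsewhere in the genome. Among members in which at least 50% of the 100-base windows occur once in mm9, the medians were 3.11 RPKM for 11 genes and 0.837 RPKM for 25 genes. Split by the listed end alone, the order differed. The median was 0.785 RPKM for 20 members listed over 50 bases past the stem-loop and 1.25 RPKM for 11 listed 0 to 50 bases past it. For the 35 listed to end before it the median was 0.607 RPKM. At least 5 RPKM was reached by 6 of the 20, 1 of the 11 and 0 of the 35. The library kit is described as making mRNA libraries from total RNA, and the part that selection for poly(A) tails has in these levels was not tested.

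**Figure D1:**
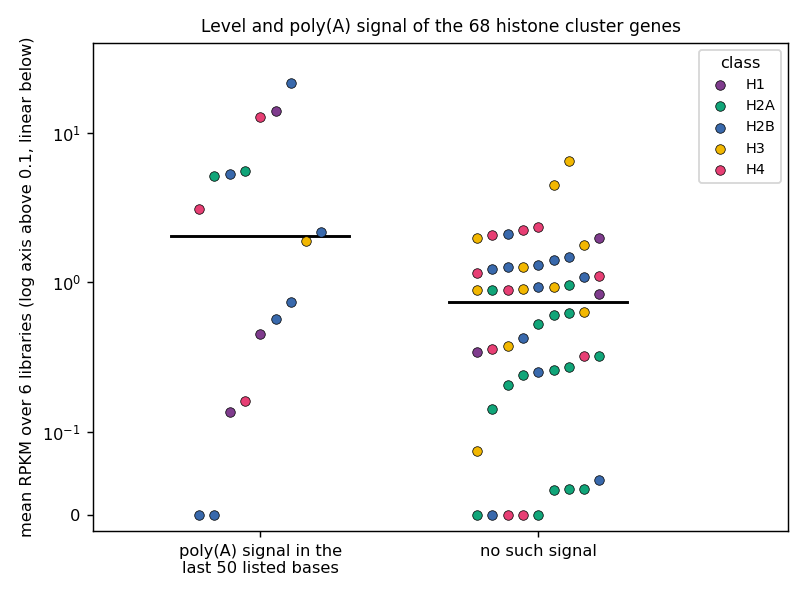
Mean RPKM over the 6 libraries (vertical axis, logarithmic above 0.1 and linear below) of the 68 histone cluster genes, split by whether the last 50 listed bases hold a poly(A) signal; each point is a gene, coloured by class, and horizontal lines are medians (2.03 and 0.735 RPKM). Of the 7 genes at 5 RPKM or more, 6 have the signal.

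As a whole the family was weakly represented. Reads on members made up 0.00695 to 0.0136% of all reads on listed genes, from 1790 reads in B8 to 3701 in EB3-0. The median member had a mean of 0.859 RPKM, against 1.21 RPKM for all listed genes. 27 members (39.7%) reached the mean of at least 1 RPKM needed for testing, against 51.3% of all listed genes, and 3 exceeded 10 RPKM. Of the 41 members below that level, 34 had reads, with means of 0.0300 to 0.963 RPKM. The other 7, Hist1h2ao, Hist1h2ap, Hist1h2ba, Hist1h2bq, Hist1h2br, Hist1h4m and Hist1h4n, had no read in any library. Hist1h2bq and Hist1h2br are listed at the same position. Hist1h2ao and Hist1h2ap overlap on the same strand, as do Hist1h4m and Hist1h4n. How reads at positions listed under several names were counted is not given, so these zeros cannot be read as absence of the mRNA.

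Several members at or near 0 cannot be told apart from others by sequence. All 7 members in which no 100-base window occurs once in mm9 had means under 1 RPKM (0 to 0.206), and 4 of them had no read. Of the 19 members in which at least 90% of windows occur once, all had reads. Hist1h2ba, a gene known for its use in testis, had no read although 72.6% of its windows occur once. How reads that match several places were counted is not given in the sources used here, so levels of near-identical members are uncertain.

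Hist1h2bc was the highest member in every library and Hist1h1c or Hist1h4i the next. The mean level of Hist1h2bc over the 6 libraries was 21.6 RPKM, that of Hist1h1c 13.99 and that of Hist1h4i 12.7. Their ranges over libraries overlapped (15.2 to 31.3, 11.02 to 18.4 and 8.02 to 19.1 RPKM). The range of the next gene, Hist1h3g (3.00 to 10.3 RPKM), overlapped that of Hist1h4i and lay below those of the other two. In reads, Hist1h1c, Hist1h2bc, Hist3h2a and Hist1h4i together took 50.9 to 62.5% of the reads on all members.

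**Figure D2:**
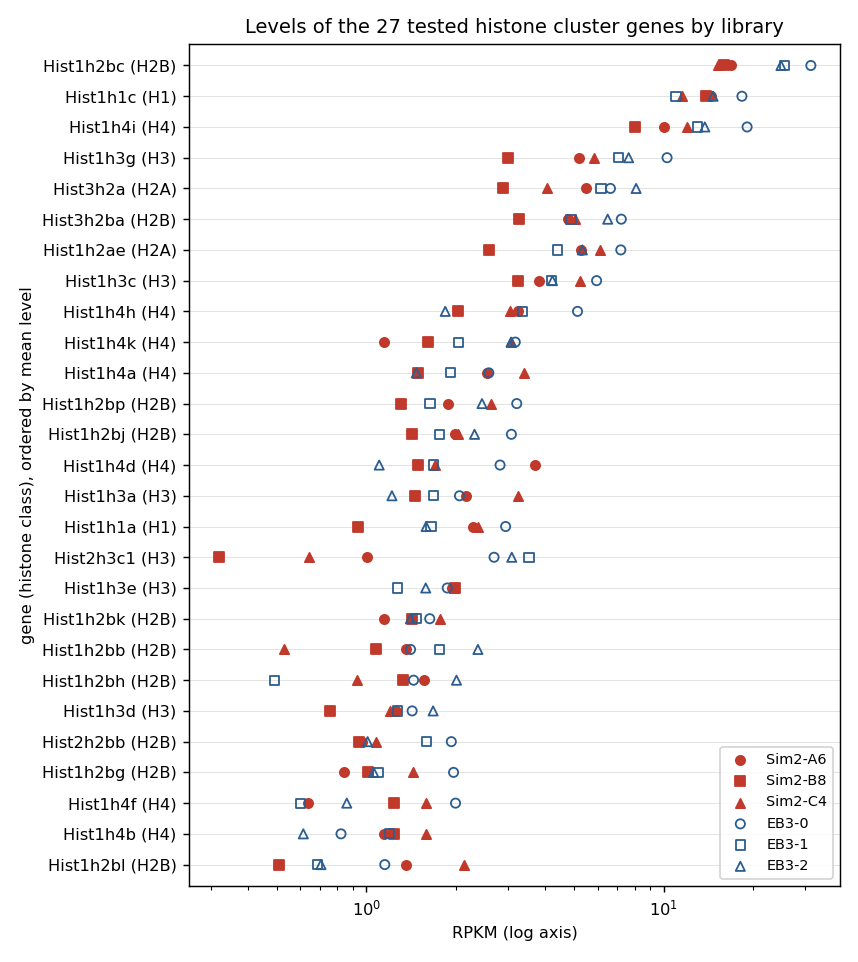
RPKM (horizontal logarithmic axis) of the 27 tested histone cluster genes in each library, with filled red symbols for the Sim2 clones and open blue symbols for EB3. EB3-0 (open circles) is the highest library for 15 of the 27 genes. All clones lie below all EB3 libraries for 7 genes (13.4% of all tested genes) and above them for 1 (12.7%). The 7 include the called genes Hist1h2bc (15.2 to 16.9 against 24.8 to 31.3 RPKM) and Hist2h3c1 (0.319 to 1.00 against 2.69 to 3.52 RPKM).

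H2A and H2B genes are often paired head to head, so that 1 stretch of DNA serves as promoter for both. 10 such pairs with reads on both genes were listed, with 172 to 334 bases between the starts. In 1 of them the lower partner of Hist3h2a is the pseudogene Hist3h2bb-ps, which had 3 reads in all 6 libraries together. In the 9 pairs without a pseudogene the mean level of the higher gene was 1.75 to 79.8 times that of the lower, with a median of 2.82, and the higher was the H2B gene in 7. Hist1h2bc and its partner Hist1h2ac were the pair with the highest member. Hist1h2ac was at 0.128, 0.0778 and 0.255 RPKM in A6, B8 and C4 and at 0.514, 0.390 and 0.261 RPKM in EB3-0, EB3-1 and EB3-2, and its mean over libraries was 79.8 times lower than that of Hist1h2bc. The listed Hist1h2ac cDNA runs over 2493 bases and has no poly(A) signal in its last 50. The 239 bases between the 2 starts, chr13:23775829-23776067 in mm9, are printed on the plus strand, with the TATA box (TATAAA), the CCAAT box and the octamer ATTTGCAT in capitals on whichever strand they occur.
Hist1h2ac/Hist1h2bc: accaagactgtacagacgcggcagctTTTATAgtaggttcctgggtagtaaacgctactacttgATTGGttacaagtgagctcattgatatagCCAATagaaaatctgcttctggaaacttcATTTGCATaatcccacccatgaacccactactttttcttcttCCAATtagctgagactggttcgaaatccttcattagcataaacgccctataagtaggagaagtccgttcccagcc
The stretch holds 1 octamer, 1 TATAAA and 3 CCAAT matches. Of the 10 pairs, 5 had an octamer between the starts.

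Promoter sequences (250 bases before to 50 bases after the start, RefSeq, assembly GRCm38.p6) matched 61 members by name. CCAAT was found on either strand in 52 of the 61 (85.2%), against 37.9% of 27025 promoters. All H1, H2A, H2B and H3 promoters matched had it, and 3 of 12 H4 promoters. TATAAA was found in 57.4% of the members' promoters and 14.2% of all. The octamer ATTTGCAT, a site of the POU factors such as OCT1 and OCT4, was found in 7 of 17 H2A and 6 of 16 H2B promoters, in none of the H1, H3 and H4 promoters, and in 1.75% of all. Promoters of head-to-head pairs can overlap, as those of Hist1h2ae and Hist1h2bg do. The same match of any motif can then be counted for both genes. GGTCC, part of an element known from H4 promoters, was found in 11 of 12 H4 promoters and in 45.4% of all. ACGTG, a core of sites bound by bHLH-PAS factors, was found in 21.3% of the members' promoters and in 19.7% of all. A match says only that these letters occur there.

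The clones were then compared with EB3 by limma on log2(RPKM + 0.5), fitted over the 11595 tested genes, and a gene was called at an adjusted p (Benjamini-Hochberg) under 0.05. 2 of the 27 tested members were called, Hist2h3c1 and Hist1h2bc, and both were lower in the clones. Over all tested genes 0.354% were called lower, 0.345% higher and 0.699% in either direction, and the 2 members are 7.41% of those tested. At an unadjusted p under 0.05 there were 7 members, all lower, where 9.36% of all tested genes were lower and 8.4% higher. All 3 clones lay below all 3 EB3 libraries for 7 of the 27 (13.4% of all tested genes) and above them for 1 (12.7% of all). In bulk RNA, fewer cells that express a gene and less RNA per cell cannot be told apart.

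**Figure D3:**
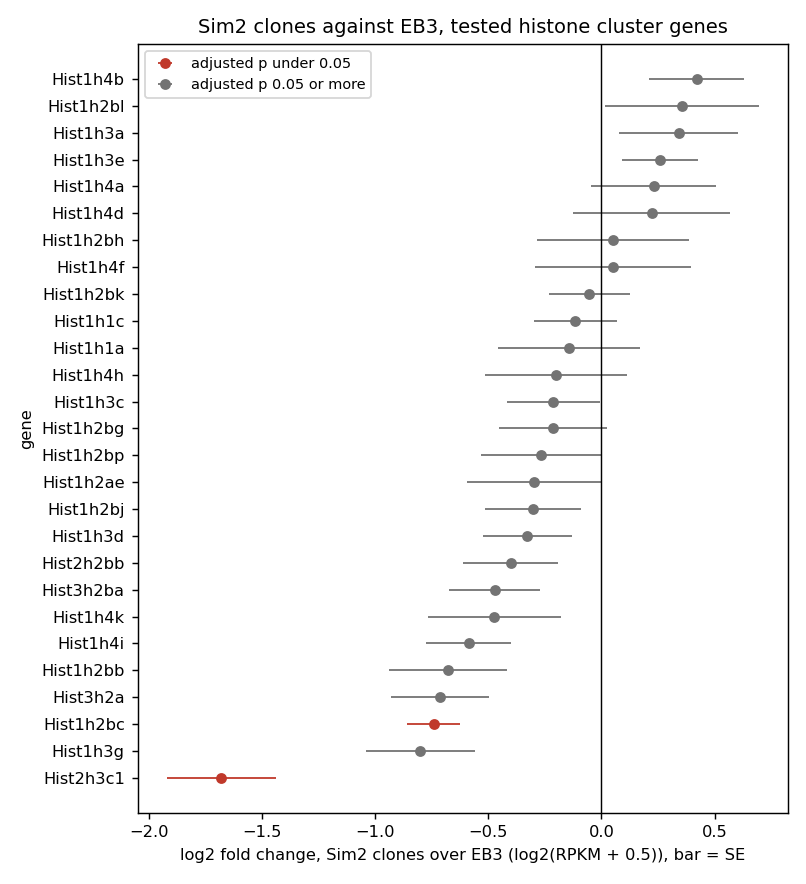
Log2 fold change of the Sim2 clones over EB3 on the log2(RPKM + 0.5) scale (horizontal axis, points with bars of 1 standard error) for the 27 tested histone cluster genes. Hist2h3c1 (-1.68) and Hist1h2bc (-0.74), in red, have an adjusted p under 0.05, and 19 of the 27 genes lie below 0.

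The largest fall was that of Hist2h3c1, a gene of the Hist2 cluster that encodes an H3 histone (chr3:96050608-96052432, plus strand, a single exon). Its level was 1.00, 0.319 and 0.640 RPKM in A6, B8 and C4, from 46, 15 and 33 reads, and 2.69, 3.52 and 3.09 RPKM in EB3-0, EB3-1 and EB3-2, from 134, 172 and 147 reads. The groups did not overlap, and EB3-0 was the lowest of the EB3 libraries. The log2 fold change was -1.68 ± 0.24 (SE), with an adjusted p of 0.0314 in limma. A 2-sided exact permutation test of 3 against 3 libraries gave p = 0.1, the smallest it can give. The call held without A6 (adjusted p = 0.0476 in limma) and without EB3-0 (0.0277), but not without B8 (0.0643), C4 (0.105), EB3-1 (0.148) or EB3-2 (0.124), and the fold change stayed between -1.89 and -1.45.

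Hist2h3c1 shares sequence with its neighbours. Of its 100-base windows 66.3% occur once in mm9, and 32.9% are shared with Hist2h3c2-ps, an H3 gene whose listed symbol marks a pseudogene. The RefSeq promoter matched by name to Hist2h3c2-ps carries the symbol H3c15, without that mark. That gene, under the level for testing, was at 0.508, 0 and 0.728 RPKM in A6, B8 and C4 and at 2.23, 1.10 and 1.05 RPKM in the EB3 libraries 0 to 2. Its 2 groups did not overlap either, and how far reads of the one count for the other was not tested. Hist2h2be, an H2B gene of the same cluster in which 100% of windows occur once, was at 0.731, 0.460 and 0.351 RPKM in the clones and at 0.896, 1.03 and 0.937 in EB3. It too was lower in each clone than in each EB3 library and was not tested, with a mean under 1 RPKM. Hist2h2bb, the other Hist2 gene tested, was at 0.970, 0.945 and 1.08 RPKM in the clones and 1.93, 1.59 and 1.01 RPKM in EB3 (log2 fold change -0.40 ± 0.21, adjusted p = 0.368 in limma), and its groups overlapped.

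Summed over the 10 Hist2 genes the level was 3.92, 2.17 and 3.87 RPKM in the clones and 8.85, 8.05 and 7.11 RPKM in EB3, so that the groups were apart, with Hist2h3c1 holding 33.2% of the sum over all libraries. The 3 Hist3 genes summed to 8.57 ± 2.14 RPKM in the clones against 13.2 ± 1.86 in the controls (SD, n = 3), and the 54 Hist1 genes to 93.6 ± 14.7 and 120.0 ± 26.5 RPKM.

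Hist1h2bc, the H2B gene whose promoter is printed above, was at 16.9, 15.9 and 15.2 RPKM in A6, B8 and C4 and at 31.3, 25.6 and 24.8 RPKM in EB3-0, EB3-1 and EB3-2. The groups did not overlap, and the 3 clones were closer to each other than the EB3 libraries were. The log2 fold change was -0.74 ± 0.12, with an adjusted p of 0.0383 in limma. Leaving out EB3-0, the library with the highest value, gave -0.64 with an adjusted p of 0.0195, while leaving out A6, B8, C4, EB3-1 or EB3-2 gave adjusted p of 0.119, 0.105, 0.132, 0.148 and 0.120 in limma. In 42.0% of the 100-base windows of its listed cDNA the sequence occurs once in mm9, and 32.8% of the windows are shared with Hist1h2bg. Hist1h2bg was at 0.842, 1.01 and 1.44 RPKM in the clones and 1.97, 1.09 and 1.06 RPKM in EB3 (-0.21 ± 0.24, adjusted p = 0.691 in limma), with overlapping groups.

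The other members are described by class, with fold changes that were not called unless stated. The H1 genes, for the linker histone, showed no separation of the groups among those tested. Hist1h1c was at 14.4, 13.9 and 11.6 RPKM in the clones and 18.4, 11.02 and 14.7 RPKM in EB3 (-0.12 ± 0.18, adjusted p = 0.785 in limma). Without EB3-0 its log2 fold change turned to 0.05. Hist1h1a was at 2.29, 0.935 and 2.37 RPKM against 2.94, 1.65 and 1.59 RPKM, and its fold change of -0.14 turned to 0.18 without B8 and to 0.09 without EB3-0. Of the 4 H1 genes below the level for testing, Hist1h1e had separate groups, with 0.206, 0.161 and 0.183 RPKM in the clones and 0.588, 0.465 and 0.437 RPKM in EB3. The listed Hist1h1e overlaps the start of the long listed interval of Hist1h2be.

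Of the 18 H2A genes 2 were tested. Hist3h2a, whose windows occur once in mm9 in 100% of cases, was at 5.49, 2.89 and 4.05 RPKM in the clones and 6.63, 6.16 and 8.09 RPKM in EB3. Every clone lay below every EB3 library, but the difference was not called (-0.71 ± 0.22, adjusted p = 0.154 in limma). Hist1h2ae was at 5.26, 2.59 and 6.13 RPKM against 7.18, 4.41 and 5.33 RPKM, with overlapping groups. Its log2 fold change of -0.30 turned to 0.03 without B8.

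Of the 19 H2B genes 10 were tested. Besides Hist1h2bc, Hist3h2ba was at 4.76, 3.26 and 5.02 RPKM in the clones and 7.21, 4.89 and 6.49 RPKM in EB3 (-0.47 ± 0.20, adjusted p = 0.272 in limma), and its groups overlapped by C4. Hist1h2bb was at 1.36, 1.08 and 0.529 RPKM against 1.41, 1.76 and 2.37 RPKM (-0.68 ± 0.26, adjusted p = 0.23), with separate groups and 7 to 29 reads per library. Hist1h2bl was among the 3 members with the largest positive fold change, 0.36 ± 0.34 (adjusted p = 0.632 in limma), at 1.36, 0.509 and 2.14 RPKM against 1.15, 0.687 and 0.704 RPKM. Summed over the class the H2B level was 36.3, 30.7 and 36.3 RPKM in the clones and 58.0, 43.2 and 47.0 RPKM in EB3, with Hist1h2bc as 51.6% of the sum over all libraries. The class was not summed without Hist1h2bc, so this sum does not show whether the other H2B genes differ.

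Of the 12 H3 genes 6 were tested. Hist1h3g was at 5.18, 3.00 and 5.82 RPKM in the clones and 10.3, 7.07 and 7.63 RPKM in EB3, and the groups were apart (-0.80 ± 0.24, adjusted p = 0.153 in limma). Hist1h3c was at 3.82, 3.23 and 5.23 RPKM against 5.95, 4.21 and 4.23 RPKM, with overlap (-0.21 ± 0.20, adjusted p = 0.636). Hist1h3a lay in the other direction, at 2.16, 1.45 and 3.25 RPKM against 2.06, 1.68 and 1.22 RPKM (0.34 ± 0.26, adjusted p = 0.546 in limma). Hist1h3e was the tested member with all clones above all EB3 libraries, at 1.94, 1.98 and 1.98 RPKM against 1.87, 1.27 and 1.58 RPKM (0.26 ± 0.17, adjusted p = 0.466 in limma). These levels came from 20, 21 and 23 reads against 21, 14 and 17 reads, so the read numbers themselves overlapped.

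Of the 13 H4 genes 7 were tested, and 4 of them had a positive and 3 a negative fold change. Hist1h4i was at 10.02, 8.02 and 11.99 RPKM in the clones and 19.1, 13.0 and 13.8 RPKM in EB3, so that the groups were apart (-0.59 ± 0.19, adjusted p = 0.167 in limma). Hist1h4h was at 3.25, 2.03 and 3.03 RPKM against 5.14, 3.36 and 1.84 RPKM, and its fold change of -0.20 turned to 0.10 without EB3-0. The largest positive fold change of any tested member was that of Hist1h4b, 0.42 ± 0.21 (adjusted p = 0.343 in limma), at 1.15, 1.24 and 1.59 RPKM against 0.822, 1.20 and 0.614 RPKM, from 5 to 14 reads per library.

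**Figure D4:**
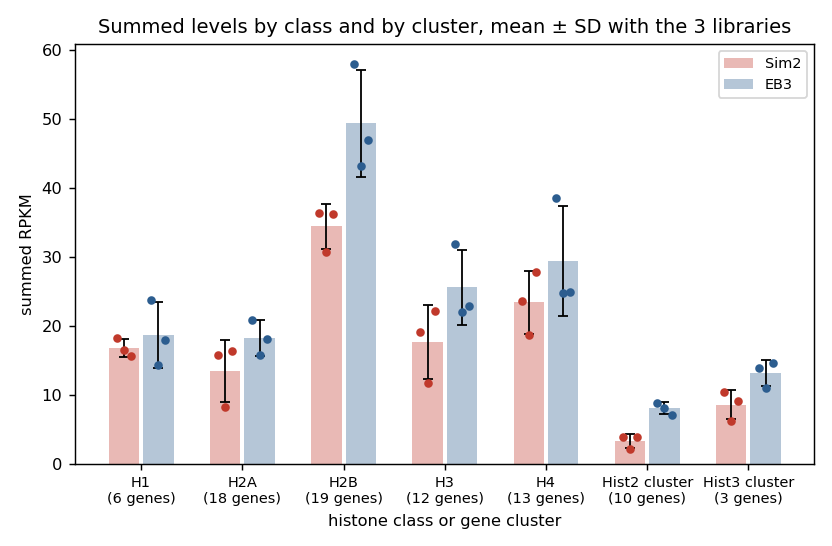
Summed RPKM (vertical axis) of the genes of each histone class and of the Hist2 and Hist3 clusters; bars are means of 3 libraries, error bars 1 SD, points the libraries, red for the Sim2 clones and blue for EB3. The groups do not overlap for H2B (30.7 to 36.3 against 43.2 to 58.0 RPKM) and for the Hist2 and Hist3 clusters, and they overlap for H1, H2A, H3 and H4. Hist1h2bc, itself called, holds 51.6% of the H2B sum over all libraries. The H2B sum therefore does not show whether the other genes of the class differ.

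Among the 34 members with reads but under the level for testing, all clones lay below all EB3 libraries for 5 (Hist2h3c2-ps, Hist2h2be, Hist1h2ai, Hist1h1e and Hist1h2ac) and above them for 1, Hist1h2ad, and the groups overlapped for 28. Over the 6368 listed genes with reads below the testing level, these shares were 8.02% below and 5.48% above. Hist1h2ai, an H2A gene, was at 0.406, 0.593 and 0.0900 RPKM in the clones and 0.932, 1.05 and 0.682 RPKM in EB3, from 1 to 11 reads. Hist1h2ad, also an H2A gene, was at 0.304, 0.198 and 0.45005 RPKM against 0.0932, 0.190 and 0 RPKM, from at most 5 reads, and none of its 100-base windows occurs once in mm9. The further linker histone genes overlapped between groups: Hist1h1b was at 0.415, 1.10 and 1.00 RPKM against 0.872, 0.668 and 0.969 RPKM, and Hist1h1d at 0.683, 0.391 and 0.440 RPKM against 0.566, 0.427 and 0.206 RPKM. Hist1h1t, the linker histone of the testis, had at most 12 reads in a library. Hist4h4, the H4 gene that lies alone on chromosome 6, had a mean of 0.156 ± 0.0845 RPKM in the clones against 0.165 ± 0.0996 in the controls (SD, n = 3).

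Over the 27 tested members 19 fold changes were negative and 8 positive, with a median of -0.21, against -0.01 over all tested genes. The tilt moved with single libraries. EB3-0 was the highest of the 6 libraries for 15 of the 27 members (27.1% of all tested genes) and the lowest for none, and B8 was the lowest for 13 (26.5% of all tested genes). Without EB3-0, 15 fold changes were negative and 12 positive, and the median was -0.06. Without B8, 18 were negative and 9 positive, with a median of -0.07, and without C4 the median was -0.37, with 20 negative and 7 positive.

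The ratio of EB3-0 to the other EB3 libraries varied with transcript length, and most members are short. Their listed cDNAs have a median of 466.5 bases, against 2240.5 for all listed genes. The log2 ratio of EB3-0 to the mean of EB3-1 and EB3-2 had a median of 0.45 over the 27 members, of which 22 were above 0, and of -0.00 over the other genes. Among cDNAs under 500 bases it was 0.45 for 16 members and 0.35 for 135 other genes. Between 500 and 1000 bases it was 0.51 for 8 members and 0.34 for 821 other genes. Between 1000 and 2000 bases the 3 members, Hist1h1c, Hist3h2a and Hist2h3c1, had 0.51, -0.09 and -0.25, against a median of 0.21 for the others. Among other genes the median fell on to -0.66 over 8000 bases. All 8 members of 500 to 1000 bases were above 0, and their median was above the upper quartile of the other genes of that length, 0.467. With a length trend removed the median over the 27 members was 0.12. Members are also rich in G and C, with a median of 62.7% over the 66 with a sequence, tested or not, against 51.0% for all tested genes. With trends in both GC content and length removed the median ratio over the 27 members reversed to -0.070. The part of length and of GC content in this difference was not tested further.

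**Figure D5:**
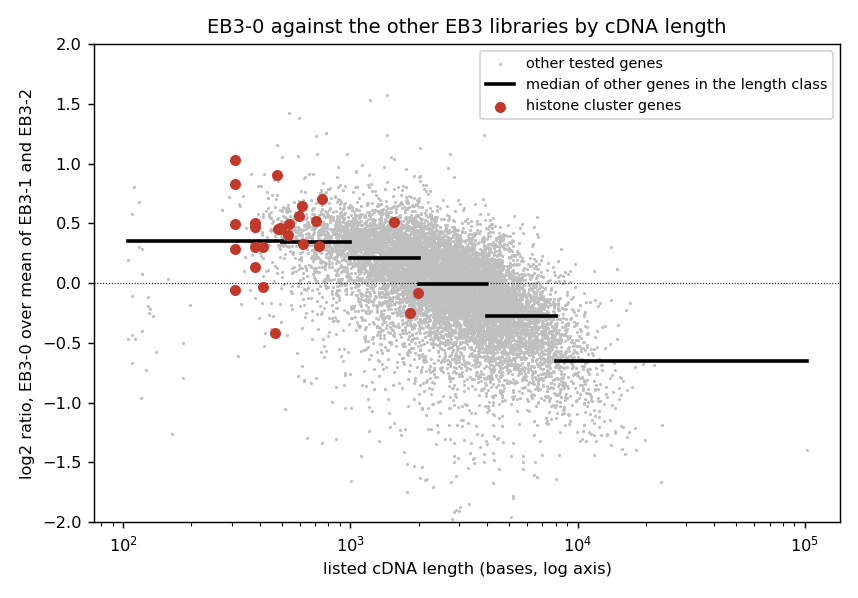
Log2 ratio of EB3-0 to the mean of EB3-1 and EB3-2 (vertical axis) against listed cDNA length in bases (logarithmic horizontal axis), with the tested histone cluster genes as red points, other tested genes as grey points (3 of them lie outside the axis) and the medians of the other genes in 6 length classes as black lines. The medians step down from 0.35 under 500 bases to -0.66 over 8000 bases, and 22 of the 27 histone genes lie above 0.

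The same length classes bear on the comparison of the clones with EB3. Under 500 bases the median log2 fold change was -0.13 for the members, 9 of 16 being lower in the clones, and -0.22 for the other genes, of which 80.7% were lower. From 500 to 1000 bases it was -0.28 for the members (7 of 8 lower) and -0.11 for the others. From 1000 to 2000 bases it was -0.71 for the 3 members and -0.05 for the others. After a smooth trend with cDNA length was taken out of each library, 18 members were lower and 9 higher, with a median of -0.09. Hist2h3c1 (-1.64, adjusted p = 0.0202 in limma) and Hist1h2bc (-0.63, adjusted p = 0.0142) were still called on those values.

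Replicates of the members were farther apart than those of other genes. The median SD of log2(RPKM + 0.5) within a group was 0.31 in the clones and 0.30 in EB3 over the 27 members, against 0.14 and 0.16 over all tested genes. Over the 7356 tested genes within the members' span of mean level, 1.09 to 21.6 RPKM, it was 0.16 and 0.17. A tested member had 5 to 782 reads per library, with a median of 24.5, and the part of these read numbers in the spread was not tested. Without B8 the median SD in the clones was 0.25 over the members and 0.080 over all tested genes. Without EB3-0 that in EB3 was 0.22 over the members and 0.046 over all tested genes, so the members stayed farther apart.

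4 members, Hist1h1c, Hist1h2bl, Hist1h2bq and Hist1h3c, are on the list of genes that the study assigned to SIM2-bound regions. The study assigned regions between genes or in introns to the closest gene on each side. The share of all listed genes on that list was not computed here, so this number is not a result about the members. None of the 3 that were tested was called, with the values given above. Hist1h2bq, listed at the same position as Hist1h2br, had no read.

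The genes that make, carry and replace these histones were read off the same fit. Among 29 genes of histone mRNA processing, 0 were called in limma, with 2 higher and 5 lower at an unadjusted p under 0.05 and a median log2 fold change of -0.06. With limma voom on recovered reads 0 were called. Slbp, for the stem-loop binding protein, was at 48.8, 37.1 and 50.2 RPKM in the clones and 56.0, 56.7 and 54.1 RPKM in EB3. The clones all lay below EB3, but the difference was not called (-0.30 ± 0.12, adjusted p = 0.253 in limma). Npat, for the factor that links cyclin E/CDK2 to histone gene transcription, had a log2 fold change of -0.06 (adjusted p = 0.905 in limma), which was -0.31 without EB3-0 and turned to 0.049 without EB3-1 and 0.076 without EB3-2. Its level in EB3-0, 6.64 RPKM, was below the 11.3 and 11.7 RPKM of EB3-1 and EB3-2.

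Of 15 replacement histone genes, which encode variants made outside S phase as well, 11 were tested and 1 was called. H2afz, for a variant of H2A, fell from 81.8, 83.3 and 85.6 RPKM in EB3 to 30.4, 31.5 and 38.4 RPKM in the clones, with a log2 fold change of -1.32 ± 0.11 and an adjusted p of 0.00378 in limma. It was called with each library left out in turn. The median over the 11 genes was -0.18. Among 22 histone chaperones 0 were called in limma, with 0 higher and 4 lower at an unadjusted p under 0.05, and limma voom called 1, Npm1 (adjusted p = 0.0479). The paper's own edgeR comparison lists Npm1 as significantly lower in the Sim2-expressing cells.

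Among 32 genes of S phase and E2F targets 0 were called in limma and 0 with limma voom, with 1 higher and 1 lower at an unadjusted p under 0.05 and a median of 0.01. Pcna, the sliding clamp of DNA polymerase, was at 248, 215 and 226 RPKM in the clones and 221, 215 and 224 RPKM in EB3 (0.06 ± 0.09, adjusted p = 0.777 in limma), and its groups overlapped.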

How the data were processed

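The authors mapped paired mRNA-seq reads to mm9 with BWA, measured exon coverage with a custom pipeline and deposited RPKM for each gene and library. Aligner version, annotation version, use of strand and treatment of reads with several positions are not given in the sources used here. Because the unit is not a count, the main test was not a count model. RPKM times cDNA length gave whole reads for 100% of values (tolerance 0.01). In each library 177 to 232 genes had 1 such read and 724 to 777 had 2. Whether both mates of a pair were counted is not given, so read numbers may exceed the number of independent fragments.

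Groups came from the sample labels. Genes with a mean of at least 1 RPKM were tested by limma (version 3.58.1, R 4.3.3, eBayes with an intensity trend) on log2(RPKM + 0.5), without covariates, with Benjamini-Hochberg adjustment. This scale understates changes of low genes. The script was tested on simulated data. Alternatives were pseudocounts of 0.1 and 1, no filter, a minimum of 5 RPKM, quantile normalization, removal of length or GC and length trends (splines with 5 degrees of freedom), EB3-1 and EB3-2 averaged, limma voom on recovered reads, and each library left out. P-values measure the spread between these cultures.

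Sequences came from the mm9 genome and, for promoters, RefSeq (Python 3.11.15, pandas 2.3.3, numpy 2.4.6). By symbol, 67 of 68 members were found in an mm9 annotation, and 63 overlapped the listed position. Proteins were not analysed here.

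Named members were those called, the 2 highest of each class, the 3 largest rises and falls, those with separate groups and an unadjusted p under 0.05, and those on the SIM2 site list; beyond these, Slbp, Npat, Pcna and called genes of the supply lists. Hist1h2ac, Hist1h2ad, Hist1h2ai, Hist1h2bg, Hist1h1b, Hist1h1d, Hist1h1e, Hist1h1t, Hist1h3e, Hist4h4, Npm1, Krt8, Hist3h2bb-ps, the 7 members without reads and the further Hist2 genes were added after their values were seen. The members and all lists were chosen with earlier results of these data known.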

Additional observations from a re-analysis of the deposited data

How the results depend on the processing

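Hist2h3c1 and Hist1h2bc, the 2 members called, were lower in the clones under every alternative run on them. Both were called with either other pseudocount, quantile normalization and either trend removal. The number of members called was 0 without a filter (0.156% of all genes then tested), 1 at a minimum of 5 RPKM (0.683%), 0 with EB3-1 and EB3-2 averaged (0.0517%), 1 with limma voom (0.552%), and 0 to 2 with a library left out. Without EB3-0, where 2 members were called (7.41% of those tested), 5.99% of all tested genes were called. With the length trend removed it was 2.05%. The median fold change of the tested members was -0.59 at the minimum of 5 RPKM, where 7 members were left, and -0.37 to -0.06 with a library left out. The median EB3-0 ratio was 0.12 with the length trend removed and reversed to -0.070 with GC and length trends removed. In the mRNA processing list 1 gene was called after quantile normalization, 1 with the length trend removed and 0 to 1 with a library left out, and among chaperones 1 with the length trend removed, 1 with voom and 0 to 2 with a library left out. Replacement histones gave 1 to 3 with a library left out. Fold changes of single genes that turned sign ran, with a library left out, from -0.30 to 0.055 for Hist1h1c, -0.32 to 0.18 for Hist1h1a, -0.52 to 0.034 for Hist1h2ae, -0.53 to 0.10 for Hist1h4h and -0.31 to 0.076 for Npat, and Npat was at 0.062 with the EB3 pair averaged. The cause of these changes was not tested, beyond the genes and libraries that each setting leaves out. No paired analysis was possible because the clones and the EB3 cultures share no replicate numbers. Few reads per gene, 24.5 in the median tested member, limit what can be seen.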
